A study of Homo sapiens with 12 samples.

Results

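The 33 genes described here encode chaperones, stress sensors and protein translocation components of the endoplasmic reticulum (ER), and were taken from a list of gene symbols. A member was measured where an Affymetrix probe set carried its symbol and no other, and 30 of the 33 were, on 53 probe sets, out of 11963 genes and 22215 probe sets on the array. Each gene is given by its brightest such probe set over the 12 arrays, with the others beside it. DNAJB11, SEC61G and KDELR2 were not analysed here. The cells were HMT-3522 S1, an established line of non-neoplastic epithelium from human breast. In basement membrane gel it forms acini, hollow gland-like spheres with an apical side facing a lumen. The AGA group received 10 µM 18-alpha-glycyrrhetinic acid, which blocks communication through gap junctions, and is labelled not polarized. The Aza group received 10 µM 5-aza-2'-deoxycytidine, which blocks DNA methyltransferases, and is also labelled not polarized. The vehicle group is labelled polarized. Each group had 4 arrays, numbered 1 to 4, and both drugs were present from plating for 10 days, with fresh medium every 2 days. All 3 groups grew in H14 medium with 5% Matrigel and had no EGF for the last 48 hours. The series design calls the replicates biological without saying how separate the cultures were. The fit removed the level shared by arrays of the same number, so p-values measure the remaining spread among these cultures of 1 line.

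The ER folds and modifies proteins bound for the cell surface and for secretion, which in mammary epithelium include adhesion molecules, basement membrane components and milk proteins. When unfolded proteins collect in its lumen, the sensors ATF6, IRE1 (gene ERN1) and PERK (gene EIF2AK3) start the unfolded protein response, which slows translation and raises transcription of chaperones and of the degradation machinery. ATF6 does so as a cleaved transcription factor that acts with NF-Y at the ER stress response element (ERSE), while IRE1 splices the messenger of XBP1 and PERK phosphorylates the translation factor eIF2-alpha, which favours translation of ATF4.

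The promoters of several members carry this element, and they are shown to mark which members hold an exact match to it. RefSeq promoters of GRCh38.p14 were available for 27 of the 30 measured members, and the 250 bases before each listed start were searched on both strands. A gene was counted where any of its listed promoters held the motif, for members and for all genes alike. The ERSE, which is CCAAT and CCACG with any 9 bases between, occurred in 6 of 27 members (22.2%), against 25 of 27305 genes in the table (0.0916%). The shorter ERSE-II, ATTGG and CCACG with any 1 base between, occurred in 3 of 27 (11.1%), against 18 genes (0.0659%). Both contain CCACG, which alone was present in 22 of 27 members (81.5%), against 37.5% of all genes in the table and 48.4% of those on the array. The element was first defined from genes of this kind, so its presence is a property of the list and not a result of these cultures. The lines below run 5′ to 3′ on the gene's strand, with the fixed bases of the motif in capitals and the variable bases in lower case; a site lying on the opposite strand reads as CGTGG and ATTGG, or CGTGG and CCAAT. In HSPA5 the site begins 66 bases before the start of the gene, and in XBP1 52 bases before it. CANX has the ERSE in 2 of its 4 listed promoters, and PDIA6 and XBP1 each in 1 of 2.
HSPA5, chr9:125241344-125241493, minus strand: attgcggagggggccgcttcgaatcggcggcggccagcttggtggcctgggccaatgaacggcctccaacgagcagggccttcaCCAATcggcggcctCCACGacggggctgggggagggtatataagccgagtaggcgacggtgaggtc
CALR, chr19:12938364-12938422, plus strand: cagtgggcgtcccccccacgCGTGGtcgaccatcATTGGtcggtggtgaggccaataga
CANX, chr5:179698758-179698816, plus strand: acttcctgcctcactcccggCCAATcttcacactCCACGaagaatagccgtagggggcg
PDIA6, chr2:10812833-10812891, minus strand: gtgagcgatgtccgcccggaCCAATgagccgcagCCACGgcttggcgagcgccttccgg
XBP1, chr22:28800583-28800641, minus strand: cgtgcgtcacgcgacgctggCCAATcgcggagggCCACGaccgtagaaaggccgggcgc
SDF2L1, chr22:21642094-21642144, plus strand: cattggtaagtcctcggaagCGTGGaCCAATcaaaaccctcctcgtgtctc
HERPUD1, chr16:56932005-56932055, plus strand: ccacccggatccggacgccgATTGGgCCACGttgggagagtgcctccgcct
HSP90B1 has 2 ERSE copies and HYOU1 has 2 ERSE-II copies in the same window. The UPRE core TGACGTGG, bound by XBP1 and ATF6, occurred in 3 of 27 members (11.1%), against 0.78% of genes in the table. TGATGNAA, a form of the ATF4 site, occurred in 1 of 27 (3.7%), against 3.89%. A match describes letters in this window and shows no binding. Likewise, a window without an exact match does not show that the element leaves the gene alone.

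The deposited intensity values were taken to log2 and quantile normalized, and every level and difference below is on that log2 scale unless a fold is named. Deposited array medians were 23.3 to 35.9, and no member had a value below an intensity of 1 on any array. The breast epithelial markers were present, with KRT5 at 12.39, KRT14 at 12.37, DSP at 11.66 and ITGB4 at 8.80 averaged over the 12 arrays, while EPCAM was at 1.47. Among markers of other cell types the 4 measured leukocyte genes ranged from LYZ at 0.11 to CD14 at 3.00, the 3 endothelial genes from CDH5 at 0.76 to PECAM1 at 2.05 and the 3 adipocyte genes from LEP at 1.57 to PLIN1 at 5.05. Of the fibroblast markers, COL1A1 was at 7.15 and DCN at 5.01, while LUM was at 0.20. The summed level of the 7 fibroblast markers was 7.06 to 7.78 in AGA, 7.88 to 8.17 in Aza and 7.52 to 8.05 in vehicle cultures, and that of the 9 epithelial markers was 13.94 to 14.32 in AGA, 13.52 to 14.06 in Aza and 13.53 to 14.15 in vehicle cultures. Their part in the results was not tested, and in such bulk samples fewer cells of a type and less RNA per cell cannot be told apart. The arrays numbered 4 of all 3 groups stood apart from the other 9 on the first principal component of the brighter probe sets (43.4% of the variance).

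AGA was set against vehicle to ask which transcripts differ when acini lose apical polarity under a gap junction inhibitor. None of the 30 members passed the threshold of 0.05 in limma's test adjusted over all probe sets, where 0.761% of genes did, and the lowest adjusted p among members was 0.164. Most members nevertheless lay slightly above vehicle. Their median difference was 0.15, against 0.01 over all genes and 0.01 over the 2991 brightest genes. In all, 24 of 30 had a difference above 0, against 51.5% of genes. On the deposited scale, without normalization, the median of all genes shifted to -0.24 and that of the members to -0.09, so that 9 of 30 lay above 0 but 24 of 30 above the median of all genes. At an unadjusted p under 0.05, 9 members were higher (30.0%, against 6.80% of genes) and 1 was lower (3.33%, against 6.08%), while 0 passed that unadjusted level in the fit without the replicate block. Within pairs of the same replicate number, 11 of 30 were higher in AGA in 4 of 4 pairs (36.7%, against 10.4% of genes) and 1 was lower in 4 of 4 (against 9.14%). For the 2991 brightest genes these shares were 15.8% and 14.1%. The median over members was 0.10, 0.17, 0.20 and 0.19 in pairs 1 to 4. No member's AGA arrays lay wholly outside the vehicle range, where 1.42% of genes did so on the high side and 1.27% on the low side. Members share cultures and regulators, so they do not count as independent observations, and the list was made with earlier results of these data known.

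**Figure D1:**
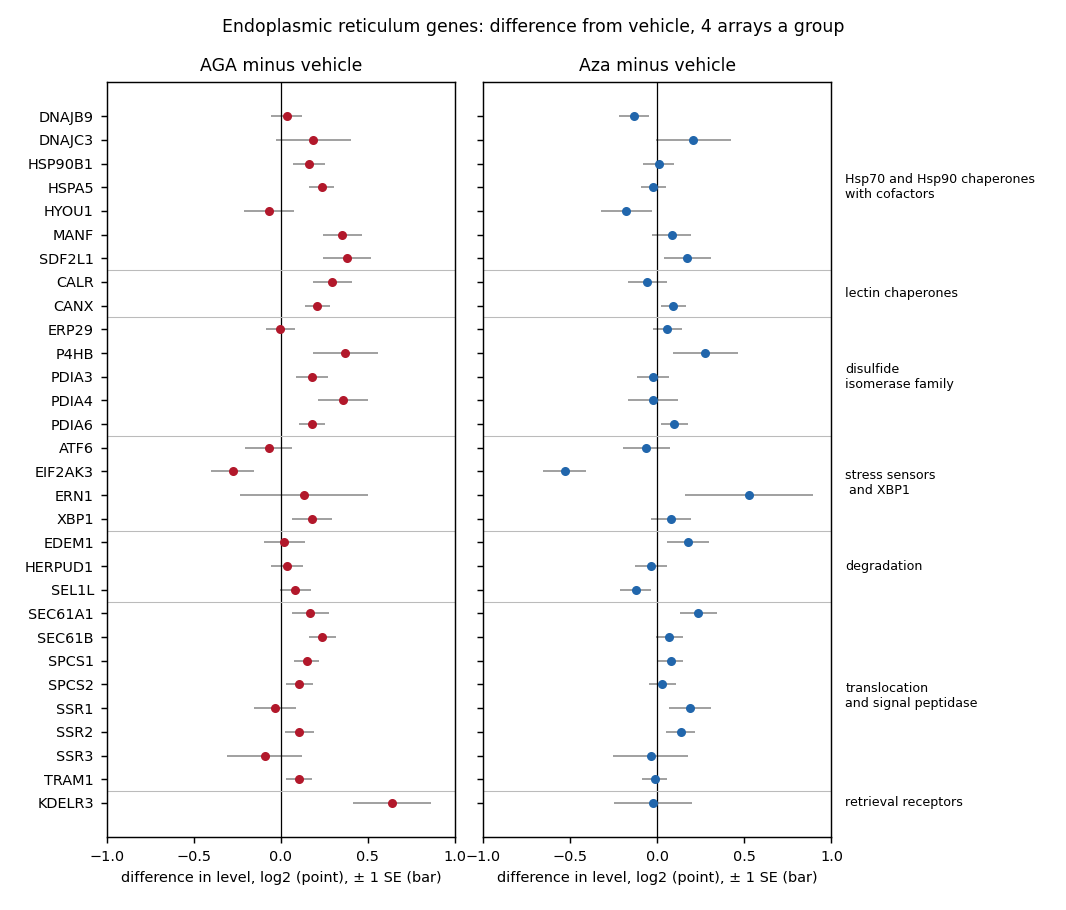
Log2 difference of each of the 30 members in AGA against vehicle and in Aza against vehicle, with ±1 SE from the limma fit as a bar (4 arrays per group), members grouped by role. Differences in AGA run from -0.28 (EIF2AK3) to 0.64 (KDELR3), and 24 of 30 lie above 0, against 17 of 30 in Aza.

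The ER Hsp70 and its partners included HSPA5, the member with the lowest p in AGA against vehicle. HSPA5, the chaperone BiP that binds unfolded chains and holds the 3 sensors inactive, was at 10.26, 10.54, 10.53 and 9.91 in AGA cultures 1 to 4, 10.19, 10.18, 10.13 and 9.72 in Aza cultures and 10.20, 10.23, 10.27 and 9.60 in vehicle cultures. AGA exceeded vehicle within every pair, but the groups overlapped, with culture 4 low in each. The difference from vehicle in AGA was 0.23 ± 0.07 (SE; 95% interval 0.08 to 0.39), a fold of 1.18, with an adjusted p of 0.164. MANF, a secreted ER stress factor that associates with BiP, was at 8.35, 8.18, 8.38 and 7.23 in AGA, 7.89, 8.15, 8.02 and 7.02 in Aza and 7.90, 8.00, 7.68 and 7.15 in vehicle cultures. Cultures 1 to 3 of AGA lay above every vehicle culture and culture 4 lay within the vehicle range. Its AGA difference was 0.35 ± 0.11 (interval 0.11 to 0.59; fold 1.28; adjusted p = 0.183). SDF2L1, a partner of the BiP co-chaperones, differed by 0.38 ± 0.14 (adjusted p = 0.247), and HSP90B1, the ER Hsp90, by 0.16. Both were higher in 4 of 4 pairs, and HSP90B1 rests on probe sets of a type that can bind related transcripts, since 2 others also name a microRNA and were left out. The J-domain co-chaperones DNAJC3 and DNAJB9 differed by 0.19 and 0.03, and HYOU1, the large Hsp70 that exchanges nucleotide on BiP, by -0.07. Over the 7 measured genes of this group the median was 0.19.

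**Figure D2:**
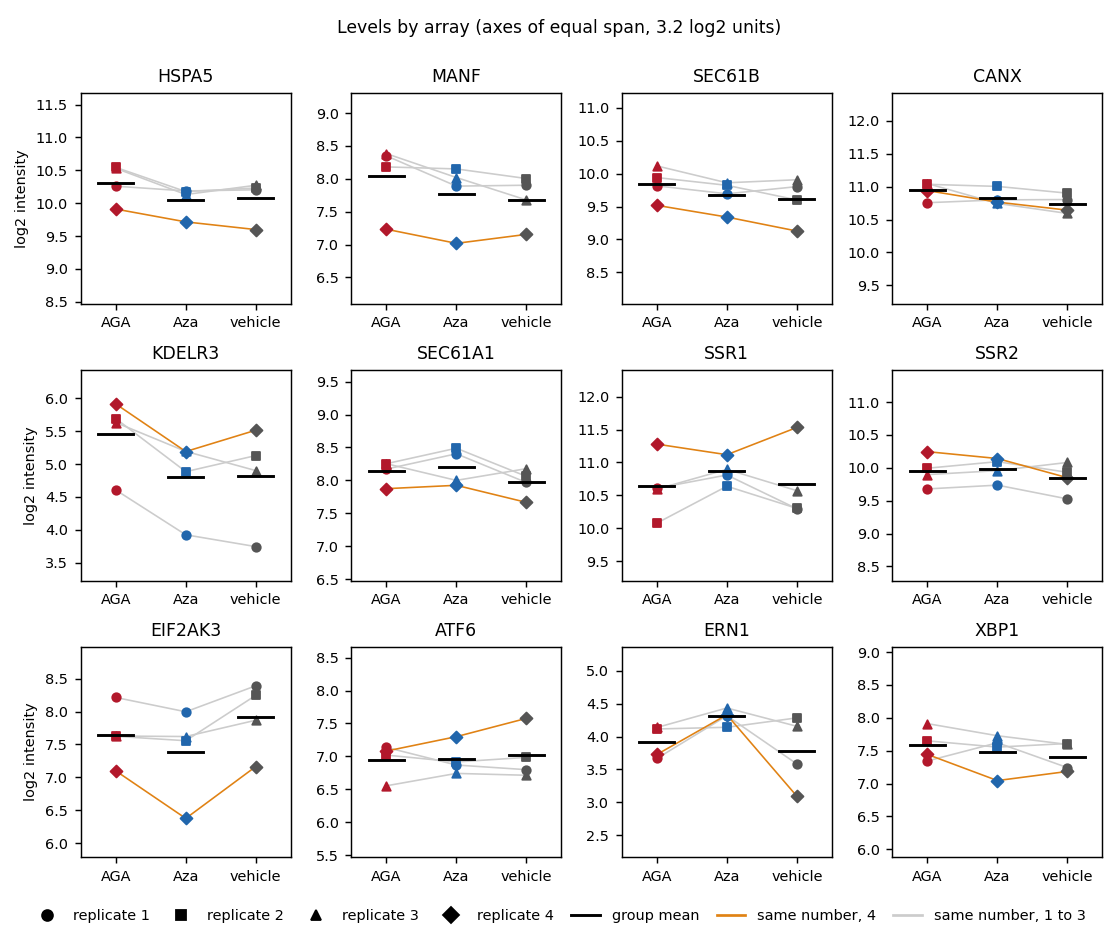
Log2 level of the named members in each culture, in the order AGA, Aza and vehicle, with 4 points per group, the mean as a bar and lines joining the same replicate number (orange for 4). HSPA5 and MANF are low in culture 4 of all 3 groups, SSR1 is high there, and in no member shown do the AGA points lie clear of the vehicle points.

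The lectin chaperones, which hold glycoproteins through their trimmed sugar chains, both lay above vehicle in AGA. Calnexin, CANX, was at 10.76, 11.04, 11.05 and 10.94 in AGA, 10.80, 11.00, 10.75 and 10.77 in Aza and 10.81, 10.90, 10.59 and 10.64 in vehicle cultures. Cultures 2 to 4 of AGA exceeded every vehicle culture, and culture 1 lay within the vehicle range. The difference was 0.21 ± 0.07 (interval 0.06 to 0.36; fold 1.16; adjusted p = 0.214). Its soluble relative calreticulin, CALR, differed by 0.30 ± 0.11 (adjusted p = 0.287) and was higher in 4 of 4 pairs. Among the disulfide isomerases, which form and shuffle disulfide bonds, PDIA4 differed by 0.36 ± 0.14 (adjusted p = 0.324) and PDIA6 by 0.18 ± 0.08 (adjusted p = 0.344), both higher in 4 of 4 pairs. PDIA3, which works with the lectin chaperones, differed by 0.18. P4HB, the classical isomerase and a subunit of prolyl hydroxylase, differed by 0.37 ± 0.19, with pair values of -0.13, 0.23, 0.13 and 1.24, so that pair 4 set most of it. ERP29, a family member without the active-site cysteine pair, differed by less than 0.01 in size.

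The sensors and XBP1 lay on both sides of vehicle in AGA, with a median of 0.03. EIF2AK3 was at 8.21, 7.62, 7.63 and 7.10 in AGA, 8.00, 7.56, 7.62 and 6.37 in Aza and 8.39, 8.25, 7.87 and 7.16 in vehicle cultures. Both treated groups were below vehicle in every pair, with overlapping ranges and the lowest value in culture 4 of each group. It was the only member with an unadjusted p under 0.05 on the low side in AGA, at -0.28 ± 0.12 (interval -0.54 to -0.015; adjusted p = 0.391). ATF6 was at 7.14, 7.02, 6.55 and 7.08 in AGA, 6.87, 6.92, 6.74 and 7.30 in Aza and 6.80, 6.98, 6.71 and 7.58 in vehicle cultures. The 3 groups covered much the same range, and the AGA difference was -0.07 ± 0.13 (interval -0.35 to 0.21; adjusted p = 0.898). ERN1, a dim probe set, was at 3.67, 4.12, 4.14 and 3.73 in AGA, 4.32, 4.14, 4.43 and 4.33 in Aza and 3.58, 4.28, 4.16 and 3.09 in vehicle cultures. Its Aza values were the most even and its vehicle values the most spread, and the interval of the AGA difference ran from -0.65 to 0.91 around 0.13. XBP1, the transcription factor whose messenger IRE1 splices, was at 7.34, 7.65, 7.91 and 7.44 in AGA, 7.62, 7.55, 7.73 and 7.05 in Aza and 7.24, 7.61, 7.59 and 7.18 in vehicle cultures. AGA was higher in 4 of 4 pairs with overlapping ranges, by 0.18 ± 0.12 (adjusted p = 0.602). Sensor activity, XBP1 splicing and ATF6 cleavage are not read by these probe sets.

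The degradation genes had a median AGA difference of 0.03. SEL1L, the scaffold of the HRD1 ligase, HERPUD1, its recruiting partner, and EDEM1, which marks misfolded glycoproteins, differed by 0.08, 0.03 and 0.02. Without the arrays numbered 4, SEL1L differed by 0.15, HERPUD1 by -0.05 and EDEM1 by 0.17. Among the 8 measured translocation and signal peptidase genes the median was 0.11, and 6 lay above 0. SEC61B, a subunit of the translocation channel, was at 9.81, 9.94, 10.12 and 9.52 in AGA, 9.69, 9.82, 9.86 and 9.34 in Aza and 9.80, 9.60, 9.91 and 9.13 in vehicle cultures. AGA was higher within every pair, though by little in pair 1, and the ranges overlapped. The difference was 0.24 ± 0.08 (interval 0.07 to 0.40; fold 1.18; adjusted p = 0.201). SEC61A1, the pore-forming subunit, was at 8.17, 8.25, 8.25 and 7.87 in AGA, 8.40, 8.49, 8.00 and 7.93 in Aza and 7.97, 8.06, 8.18 and 7.67 in vehicle cultures. AGA was higher than vehicle in 4 of 4 pairs and Aza in 3 of 4, with overlapping ranges, and the AGA difference was 0.17 ± 0.11 (adjusted p = 0.58). The translocon-associated proteins, which assist the channel, lay on both sides of vehicle in AGA, with SSR2 at 0.11, SSR1 at -0.04 and SSR3 at -0.09. The signal peptidase subunits SPCS1 and SPCS2 differed by 0.15 and 0.11, and the channel-associated TRAM1 by 0.10.

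KDELR3, a receptor that returns escaped chaperones from the Golgi, had the widest difference of the members and is shown for that reason, after its values were seen. It was at 4.60, 5.69, 5.63 and 5.91 in AGA, 3.92, 4.88, 5.19 and 5.19 in Aza and 3.74, 5.13, 4.90 and 5.51 in vehicle cultures. AGA was higher than vehicle in every pair, by 0.86, 0.56, 0.73 and 0.40, while culture 1 was low in all 3 groups and kept the ranges overlapping. The difference was 0.64 ± 0.22 (interval 0.17 to 1.11; fold 1.56; adjusted p = 0.23). Its other 2 probe sets gave 0.72 and 0.63 in AGA. Over the 13 members with more than 1 probe set, all probe sets of a gene had the same sign in 11 of 13 in AGA, the exceptions being SEL1L and SSR1, of which 1 SSR1 probe set lists an accession of DCN. The 4 probe sets of SEL1L ran from -0.54 to 0.11 in AGA, and the 4 of SSR1 from -0.04 to 0.10. The other probe sets of PDIA6 gave 0.29, 0.25 and 0.26 and those of CANX gave 0.24 and 0.14. For P4HB, PDIA4 and CALR the others gave smaller values of 0.00, 0.11 and 0.08, beside a dim CALR probe set at 1.35.

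**Figure D3:**
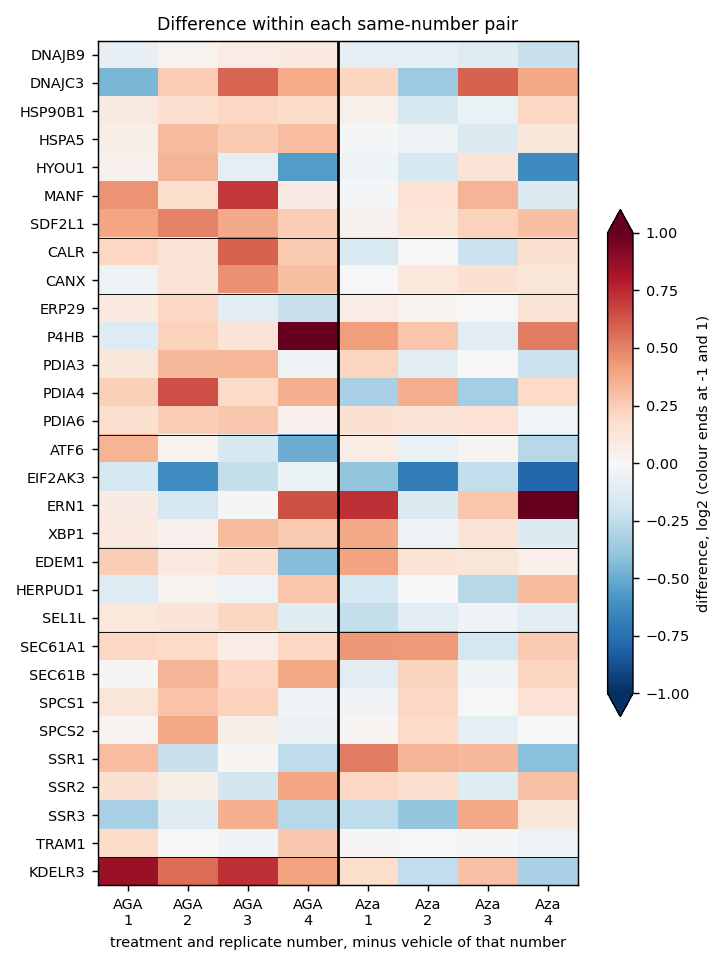
Log2 difference of each member within each pair of the same replicate number, in columns for AGA and then Aza minus the vehicle culture of that number, with members in rows and red above 0, blue below. KDELR3 is red in all 4 AGA columns, EIF2AK3 is blue in all 8, and P4HB in AGA and ERN1 in Aza reach 1.24 in pair 4.

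Aza was set against the same vehicle arrays, and here the members sat close to vehicle as a list. None of the 30 members passed the threshold, where 0.00836% of genes did (1 of 11963). The median difference was 0.04, against 0.00 over all genes, and 17 of 30 lay above 0, against 50.3% of genes. At an unadjusted p under 0.05, SEC61A1 was higher (3.33% of members, against 3.84% of genes) and EIF2AK3 was lower (3.33%, against 3.18%). SDF2L1 and EDEM1 were higher in 4 of 4 pairs (6.67%, against 8.24% of genes), and DNAJB9, EIF2AK3 and SEL1L were lower in 4 of 4 (10.0%, against 7.29%). No member's Aza arrays lay wholly above or wholly below the vehicle range, where 0.869% of genes did on the high side and 0.802% on the low side. These shares lay near those of all genes.

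EIF2AK3 had the lowest p in Aza, with pair values of -0.40, -0.69, -0.25 and -0.79. The difference was -0.53 ± 0.12 (interval -0.79 to -0.27), a fold of 0.692, and the adjusted p was 0.384. SEC61A1 was higher by 0.24 ± 0.11 (interval 0.01 to 0.46; adjusted p = 0.746). SSR1, the alpha subunit of the translocon-associated complex, was at 10.61, 10.08, 10.59 and 11.28 in AGA, 10.81, 10.64, 10.89 and 11.12 in Aza and 10.30, 10.30, 10.57 and 11.53 in vehicle cultures. Culture 4 was the highest in each group, and Aza exceeded vehicle in pairs 1 to 3 but not in pair 4, for a difference of 0.19 ± 0.12 (adjusted p = 0.857). SSR2, the beta subunit, was at 9.68, 9.99, 9.90 and 10.25 in AGA, 9.74, 10.09, 9.96 and 10.14 in Aza and 9.53, 9.93, 10.08 and 9.85 in vehicle cultures. The ranges of all 3 groups overlapped, and the Aza difference was 0.13 ± 0.08 (adjusted p = 0.847). ERN1 differed by 0.53 ± 0.37 in Aza (interval -0.25 to 1.3), with pair values of 0.73, -0.14, 0.28 and 1.24. HSPA5 differed by -0.02 ± 0.07 (interval -0.18 to 0.13), MANF by 0.08, CANX by 0.09 and SEC61B by 0.07. ATF6 differed by -0.06 ± 0.13 and XBP1 by 0.08 ± 0.12. In Aza all probe sets of a gene had the same sign in 6 of 13 members. Another probe set gave -0.81 for ATF6, 1.39 for KDELR3 and 1.14 for CALR.

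Aza and AGA were also compared directly, on the same AGA arrays as in the comparison with vehicle, so both comparisons share the level of those 4 arrays. None of the 30 members passed, where 0.995% of genes did, and the lowest adjusted p was 0.124. The median difference, Aza minus AGA, was -0.10, against -0.01 over all genes, with 9 of 30 above 0, against 48.6% of genes. On the deposited scale the members' median turned to 0.08 with 20 of 30 above 0, where the median of all genes was 0.18 and 9 of 30 lay above it, and without AGA culture 1 the normalized median was -0.18. At an unadjusted p under 0.05, 8 members were lower in Aza (26.7%, against 6.07% of genes) and 0 were higher (against 5.85%). Of the 2991 brightest genes, 9.43% were lower and 10.0% higher at that level. In the fit without the replicate block 0 members reached it. In 4 of 4 pairs 9 members were lower (30.0%, against 9.31%) and ERN1 was higher (against 8.66%). Of the 2991 brightest genes, 12.9% were lower and 12.9% higher in 4 of 4 pairs. HSPA5 differed by -0.26 ± 0.07 (adjusted p = 0.124), CALR by -0.35 ± 0.11 (adjusted p = 0.203) and KDELR3 by -0.66 ± 0.22 (adjusted p = 0.23). PDIA4 was at 6.35, 6.40, 6.42 and 6.50 in Aza and 6.91, 6.68, 6.95 and 6.65 in AGA cultures, with no overlap, and differed by -0.38 ± 0.14 (adjusted p = 0.3). Its vehicle cultures were at 6.67, 6.03, 6.76 and 6.30 and overlapped both drug groups. ERN1 did not overlap on the high side, with the closest Aza and AGA cultures both at 4.14 when rounded. Over all genes the 2 groups did not overlap for 1.32% on the low side and 1.22% on the high side. MANF differed by -0.27, SEL1L by -0.21 and SEC61B by -0.17. All probe sets of a gene had the same sign in 8 of 13 members, while another probe set gave 0.09 for PDIA4, 0.76 for KDELR3 and -0.74 for ATF6.

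**Figure D4:**
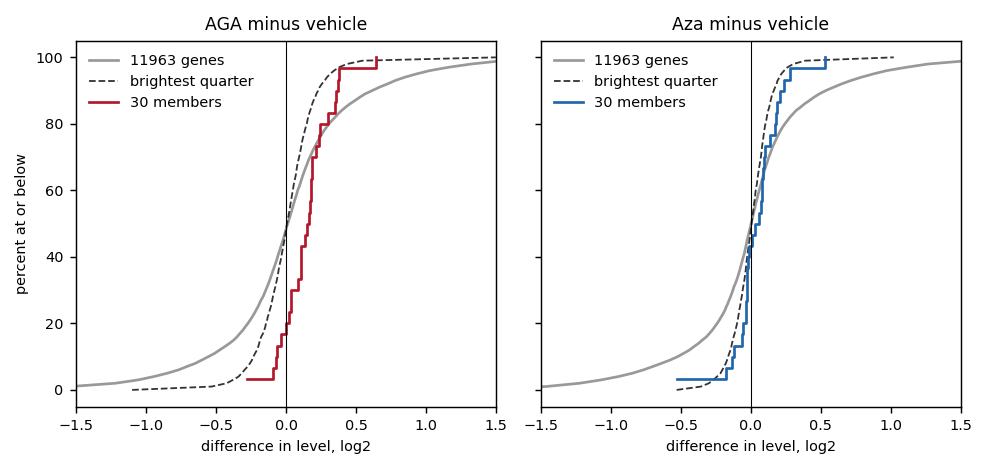
Cumulative share of genes by log2 difference for the 30 members, for all 11963 genes and for the 2991 brightest (dashed), in AGA against vehicle and in Aza against vehicle. The members' curve lies to the right of that of all genes over most of its length in AGA, with a median of 0.15 for members and 0.01 for all genes, and closer to it in Aza, with a median of 0.04 for members and 0.00 for all genes.

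Members with and without the promoter motif covered overlapping ranges. The 9 members with an ERSE or ERSE-II in the searched window had a median AGA difference of 0.18 (-0.07 to 0.38, 8 above 0). The 18 with neither had a median of 0.11 (-0.28 to 0.64, 13 above 0). In Aza the median was 0.01 with a motif and 0.06 with neither. On the array 19 further genes carry either motif, and their median AGA difference was 0.08, with 10 of 19 above 0. Of these 1 passed the threshold in AGA, CRELD2, which encodes an ER protein induced under ER stress. KDELR3, MANF, SEC61B and PDIA4 are among the members whose window held neither motif. The UPRE core was found in KDELR3, HYOU1 and SSR3, whose AGA differences were 0.64, -0.07 and -0.09.

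Other genes of the same pathways were counted on lists taken apart from the members. Of 14 measured genes of the PERK and ATF4 arm, 1 rose in AGA and 0 fell, with a median of 0.27 and 6 higher in 4 of 4 pairs. Over all genes 0.761% passed in AGA and 10.4% were higher in 4 of 4 pairs. The gene that rose was TRIB3, a pseudokinase induced by ATF4, at 5.54, 6.57, 7.19 and 6.52 in AGA, 5.55, 5.49, 5.70 and 4.90 in Aza and 5.11, 5.62, 5.54 and 5.36 in vehicle cultures. Cultures 2 to 4 of AGA exceeded all others, and the difference was 1.05 ± 0.23 (adjusted p = 0.0488). Of 19 folding and oxidation genes 1 rose and 0 fell in AGA, with a median of 0.10. It was CRELD2, at 8.54, 8.53, 8.78 and 8.49 in AGA, 8.47, 8.11, 8.07 and 7.32 in Aza and 7.99, 7.75, 8.28 and 7.63 in vehicle cultures. All AGA cultures lay above all vehicle cultures, and the difference was 0.67 ± 0.14 (adjusted p = 0.0366). Both calls are borderline, since CRELD2 was not called in 15 of 22 other settings and TRIB3 in 17 of 22, including those without the replicate block. Of 21 genes of signal recognition, translocation and oligosaccharyl transfer 0 passed in AGA, with a median of 0.10 and 8 higher in 4 of 4 pairs. Of 11 degradation genes, 11 sensors and factors and 15 genes of ER exit and retrieval 0 passed, with medians of 0.02, 0.11 and 0.04. In Aza 0 genes of these 6 lists passed. Between the drugs, where 0.995% of all genes passed (119 of 11963, of which 53 lower), 3 of 14 genes of the PERK and ATF4 arm fell in Aza relative to AGA: the secreted glycoprotein gene STC2 (-0.89, adjusted p = 0.000974), asparagine synthetase ASNS (-0.98, adjusted p = 0.0346) and TRIB3 (-1.04, adjusted p = 0.0458). STC2 was not called in 4 of 22 other settings, ASNS in 15 and TRIB3 in 18.

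Between culture 4 and cultures 1 to 3 the differences had a larger median size than those between drug and vehicle, among the members and among all genes. Relative to the mean of cultures 1 to 3, culture 4 had a median member difference of -0.30 in AGA, -0.33 in Aza and -0.32 in vehicle cultures. In all 3 groups 17 of 30 members were lower in culture 4 (56.7%, against 25.7% of genes and 40.2% of the 2991 brightest) and 7 were higher (23.3%, against 26.8% and 36.4%). The median size of the shift was 0.45 among members, 0.39 among all genes and 0.30 among the 2991 brightest. The members' differences from vehicle had a median size of 0.17 in AGA and 0.08 in Aza. Over all genes those drug differences had a median size of 0.22 in AGA and 0.18 in Aza. Over the 2991 brightest genes it was 0.11 in AGA and 0.08 in Aza. The lowest by the mean over the 3 groups was EIF2AK3, at -0.72 in AGA, -1.35 in Aza and -1.005 in vehicle cultures. MANF followed at -1.07 in AGA, -1.001 in Aza and -0.71 in vehicle cultures, and HYOU1 was at -1.06 in AGA, -1.01 in Aza and -0.41 in vehicle cultures. On the other side SSR1 was higher in culture 4 by 0.85 in AGA, 0.34 in Aza and 1.14 in vehicle cultures, and ERP29 by 0.53 in AGA, 0.92 in Aza and 0.82 in vehicle cultures. The subunits SSR1 and SSR3 of 1 complex thus differed in opposite directions, with SSR3 at -1.11 in AGA, -0.67 in Aza and -0.87 in vehicle cultures. The labels do not say what the numbers stand for. Without all 3 arrays numbered 4, the median AGA difference was 0.15 with 26 of 30 above 0, and 0 members passed. The sign of the AGA difference then turned in 6 of 30 members: HYOU1 was at 0.10, HERPUD1 at -0.05, ATF6 at 0.07, ERN1 at -0.03, SSR1 at 0.04 and ERP29 at 0.07. Of 8 others that kept their sign but changed by over 1.5 times, P4HB was at 0.08, EDEM1 at 0.17 and SSR2 at 0.01. In Aza the sign turned in 4 of 30, HSP90B1 (-0.06), PDIA3 (0.04), ATF6 (0.01) and KDELR3 (0.08), while SSR1 was at 0.39, ERN1 at 0.29 and EIF2AK3 at -0.44. For Aza minus AGA it turned in 4 of 30, P4HB (0.12), ATF6 (-0.06), SSR3 (-0.06) and ERP29 (-0.03).

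**Figure D5:**
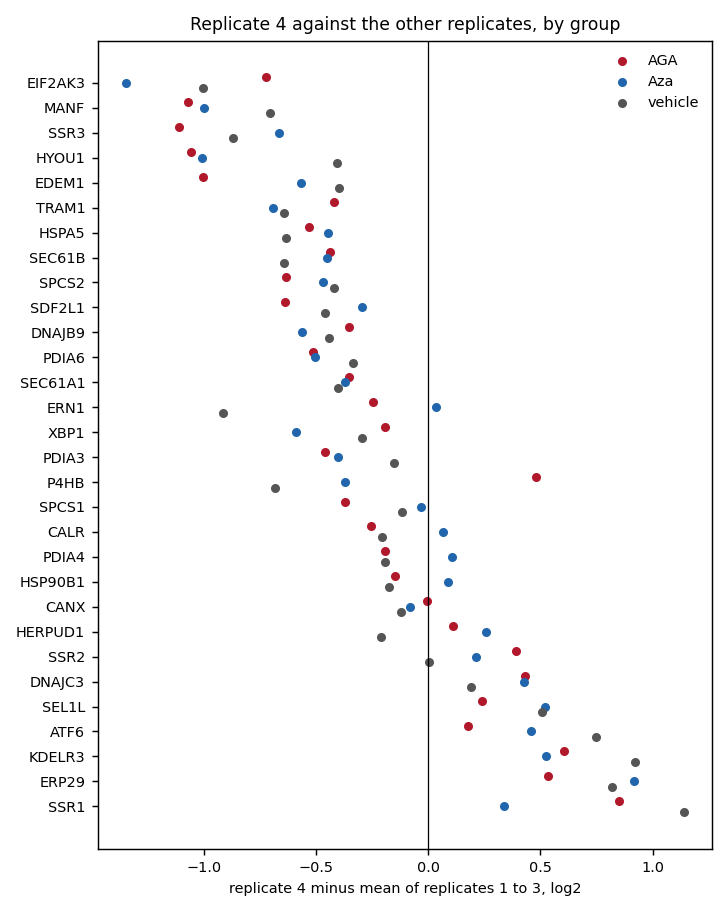
Log2 difference between culture 4 and the mean of cultures 1 to 3 for each member, in AGA, Aza and vehicle cultures. Most members lie below 0 in all 3 groups, from EIF2AK3 and MANF at the low end, while SSR1 and ERP29 lie above 0 in all 3.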

How the data were processed

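Per the labels, RNA of 12 cultures was hybridised to 1 Affymetrix array each. The deposited values are linear intensity per probe set from GCOS, per the submitters' processing notes, with no version or algorithm given in the sources used here. The 62 control probe sets were removed, values below 1 were set to 1, log2 was taken and arrays were quantile normalized, since their medians differed by 0.62. limma 3.58.1 in R 4.3.3 fitted group with replicate number as a block over all 12 arrays (6 residual degrees of freedom, eBayes with intensity trend and robust prior, two-sided), adjusted by Benjamini-Hochberg over 22215 probe sets. The script was tested on simulated data. Of the probe sets, 19064 had 1 symbol, 1043 several and 2108 none, and 19052 matched the GRCh38.p14 gene table.

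To see whether same-number arrays deviate together, each probe set's group mean was first subtracted. Over the brighter probe sets these deviations correlated by 0.368 to 0.781 between same-number arrays of different groups (12 pairs). Between arrays of different number they correlated by -0.508 to 0.181, with 5 of 36 pairs over 0.1. Over all probe sets the deviations correlated by only 0.0589 to 0.261 in same-number pairs, with 6 of 12 over 0.1. Different-number pairs then gave -0.135 to 0.0292. Groups were paired by the replicate numbers in the sample titles, and the labels do not say what these numbers stand for. Members and lists, and this fit, which calls more probe sets than those without block or trend, were chosen with earlier results of these data known. Values per array are given for the 4 members with the lowest p in each drug comparison, the sensors and XBP1, and for KDELR3 and PDIA4, chosen after their values were seen. The number of arrays limits the precision. The ranges of settings tried are given in the closing section.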

Additional observations from a re-analysis of the deposited data

Results flagged for a closer look

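In 7 of 90 groups of 4 arrays, 1 array lay far from the other 3 by Dixon's criterion, which chance does in about 1 of 20 groups, or 4.5 here. All 7 were arrays numbered 4. HSPA5 was at 9.72 in Aza culture 4, while the other 3 Aza cultures were at 10.13 to 10.19, and at 9.60 in vehicle culture 4, with the others at 10.20 to 10.27. TRAM1 was at 9.43 in Aza culture 4, with the others at 10.06 to 10.18, and SPCS2 was at 9.41 there, with the others at 9.84 to 9.92. SSR3 was at 4.59 in vehicle culture 4, with the others at 5.40 to 5.53. On the high side ERP29 was at 10.50 in Aza culture 4, with the others at 9.49 to 9.63, and SEL1L was at 8.73 in vehicle culture 4, with the others at 8.19 to 8.27.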

How the results depend on the processing

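With 4 arrays a group, the count of members past the threshold was 0 in each of the 22 other settings in all 3 comparisons. Without the replicate block, 0 members had an unadjusted p under 0.05, the lowest adjusted p was 1.0, the medians stayed at 0.15, 0.04 and -0.10, and 0 probe sets of the array were called in AGA with the intensity trend kept, against 156 with the block. With the block but neither the trend nor the robust prior 2 were called, without all arrays numbered 4 there were 44, and leaving out 1 array gave 26 to 232. On the deposited scale the medians were -0.092 in AGA, -0.012 in Aza and 0.083 for Aza minus AGA, where all genes shifted by -0.24, -0.06 and 0.18. Relative to that shift they were 0.14, 0.05 and -0.09. Only 9 of 30 were then above 0 in AGA, but 24 of 30 stayed above the median of all genes there. Leaving out 1 array gave medians of 0.12 to 0.19 in AGA, 0.025 to 0.062 in Aza and -0.18 to -0.090 for Aza minus AGA, the last without AGA 1 at -0.18.

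Of the differences of the members named by the rule and of KDELR3, these changed sign, and the cause was not tested. On the deposited scale, AGA gave SEC61A1 -0.086, SSR2 -0.11, ERN1 -0.11 and XBP1 -0.090, and Aza minus AGA gave CANX 0.060 and XBP1 0.10. With median-centred arrays SSR1 was 0.049 in AGA, HSPA5 0.011 in Aza and SSR2 -0.010 for Aza minus AGA. Without all arrays numbered 4, AGA gave SSR1 0.037, ATF6 0.071 and ERN1 -0.035, Aza gave ATF6 0.0100 and KDELR3 0.076, and Aza minus AGA gave ATF6 -0.061. The mean of all probe sets gave SSR1 0.045 in AGA, KDELR3 0.59 in Aza and ATF6 -0.37 for Aza minus AGA, and a floor of 16 gave ERN1 -0.079 in AGA. Leaving out 1 array gave, in AGA, SSR1 -0.15 to 0.10, ATF6 -0.19 to 0.036 and ERN1 -0.070 to 0.29. In Aza it gave HSPA5 -0.060 to 0.019, MANF -0.017 to 0.17, ATF6 -0.15 to 0.045, XBP1 -0.033 to 0.17 and KDELR3 -0.11 to 0.066. For Aza minus AGA it gave SSR2 -0.026 to 0.10 and ATF6 -0.097 to 0.12. CRELD2 in AGA ranged from 0.42 to 0.78 over the other settings, with adjusted p from 0.0168 to 1.0, and TRIB3 from 0.77 to 1.33, with 0.00689 to 1.0.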
